A study of Mus musculus with 8 samples.

Results

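The genes described here encode 10 molecules that leukocytes use to stick to and cross the endothelium, namely Icam1, Icam2, Vcam1, Sele, Selp, Madcam1, Glycam1, Podxl, Alcam and Cd99l2. They were chosen by symbol, and all 10 were found among the 20057 genes of the table. Tumor endothelial cells were sorted as live CD45- CD31+ cells from B16.F10 melanomas of 8 C57BL/6 male mice, and their RNA was sequenced with 1 library per tumor. The mice were 8 weeks old when they received 250000 B16.F10 cells under the skin. They were injected next to the tumor on days 13 and 16 with 30 µg of antibody, which was the agonistic CD40 antibody FGK4.5 in 4 mice (anti-CD40) and the rat IgG2a antibody 2A3 in the other 4 (isotype control), and were sacrificed, by their labels, 1 day after the second injection. The tumor cells are a single transplanted melanoma line, and the labels give no difference between the groups but the antibody. The study's methods correct for harvest day, which the labels do not give per mouse, so the tests here hold no term for it and its part in the results was not tested. The study asked how tumor endothelium responds to CD40-stimulating immunotherapy, and the adhesion molecules bear on how it receives leukocytes.

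Leukocytes leave the blood in steps. Selectins on the endothelium (E-selectin from Sele, P-selectin from Selp) catch and roll them by binding sugar structures, then the immunoglobulin-type molecules ICAM-1, ICAM-2, VCAM-1 and MAdCAM-1 hold them through leukocyte integrins, and molecules at the cell borders such as CD99L2 let them pass. Icam2 and Podxl are made by resting endothelium, whereas Icam1, Vcam1 and Sele are classical targets of inflammatory cytokines acting through NF-κB. Weak induction of these molecules in tumor vessels is a known feature of endothelial anergy.

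Icam1 and Vcam1 were higher in the RNA of cells sorted as tumor endothelium from anti-CD40 treated tumors. The selectins were not among the genes that changed. A gene was taken as changed when its group means differed at least 1.5-fold and the limma p before adjustment was 0.05 or lower, the limits of the study. Of the 10 genes, 8 had a larger group mean above 10 normalized reads and were tested, and 2 of these (25.0%) rose while 0 fell. The 2 became 0 without isotype control replicate 1, and 1 without isotype control replicate 2 or anti-CD40 replicate 2. Among all 12969 genes tested, 1.28% rose and 0.239% fell. After Benjamini-Hochberg adjustment over all genes tested, none of the 8 passed an adjusted p of 0.05 in limma (the adjusted p was 0.9997 at its lowest), against 2 with a limma p of 0.05 or lower before adjustment. The shares of all genes tested were 0.0154% and 2.01%. The median log2 difference of the 8 genes was 0.14, and that of all genes tested was 0.0046. In bulk RNA of sorted cells, fewer positive cells and less RNA per cell cannot be told apart.

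The libraries held between 2971689 and 64938728 reads on genes, and the 3 shallowest are isotype control libraries. A read was thus worth between 0.118 and 2.44 normalized reads. The endothelial markers were present in every library, and Pecam1, which encodes the CD31 used in the sort, was between 7671 and 12526 normalized reads and Cdh5, which encodes VE-cadherin, between 9535 and 14039. The leukocyte marker Ptprc, which encodes CD45, did not exceed 21.1 normalized reads. It was 9.99 ± 8.46 normalized reads with anti-CD40 and 2.52 ± 2.04 with isotype control (SD, n = 4 each, exact permutation p = 0.171), from 108 and 26 reads in overlapping groups. The part of leukocyte RNA in the results was not tested. RNA of other tumor cells was also present. The summed fibroblast markers reached 88497 to 249100 normalized reads, with Col1a1 between 26132 and 79249, and the summed melanoma markers 35283 to 91845, with Pmel between 5736 and 18500. The summed endothelial markers were between 34778 and 58174. The part of RNA of these other cells in the results was not tested. Isotype control replicate 1 stood apart, with the lowest sums of endothelial (34778), mural (11329), fibroblast and leukocyte (1195) markers and the highest sum of melanoma markers, and the values of Icam1 and Vcam1, and of some other genes, are also given without it.

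**Figure D1:**
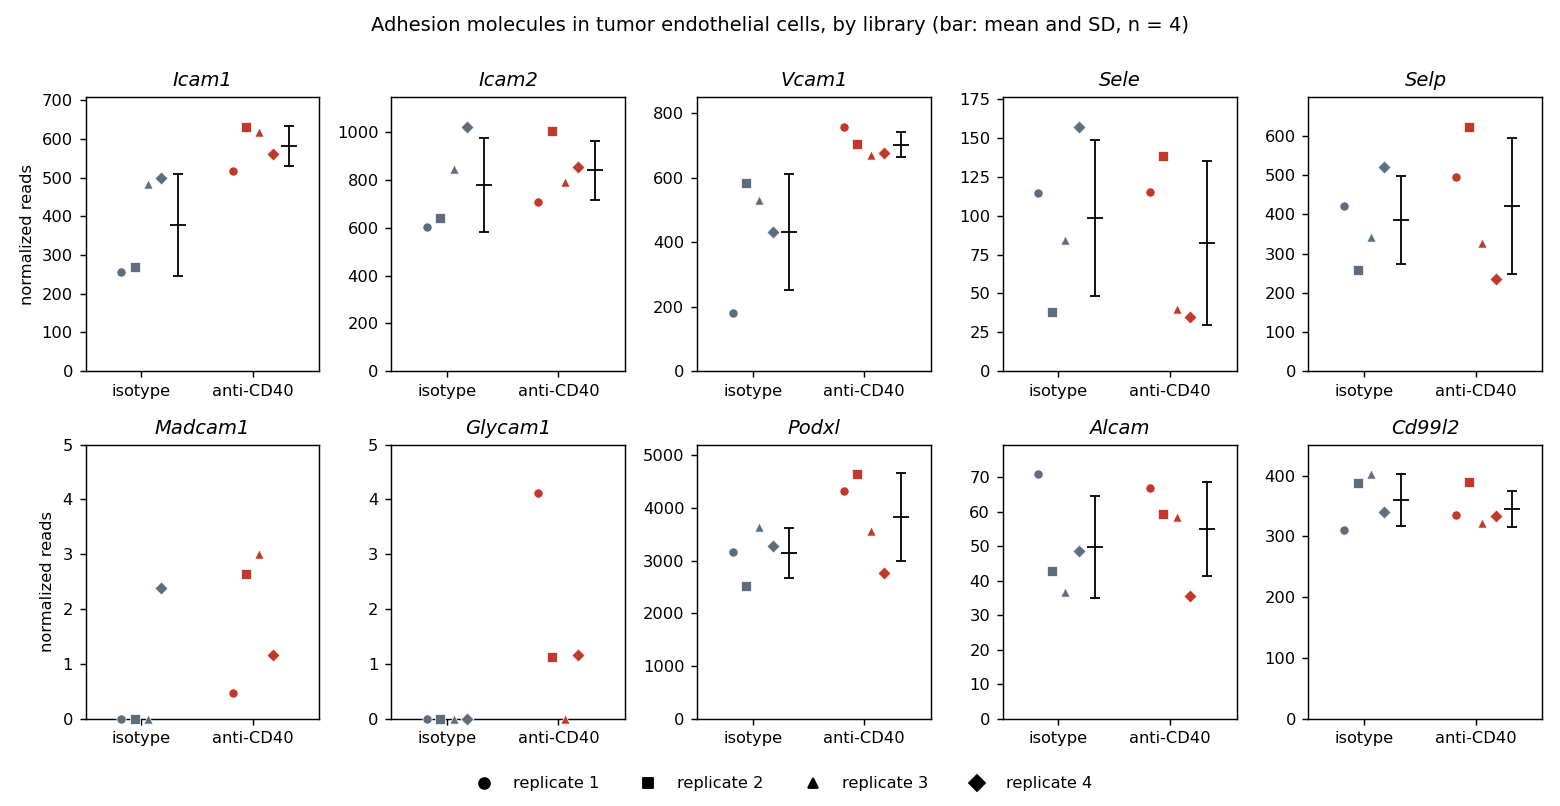
Normalized reads of the 10 adhesion molecules in each library (vertical axes, linear from 0), with the replicates of each group as symbols and the mean and SD of 4 libraries as bars for the 8 genes tested. All 4 anti-CD40 libraries lie above all 4 isotype control libraries for Icam1 and Vcam1, while the groups of the other genes overlap.

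The promoters of 3 genes are printed because they belong to an induced molecule and to the pair of vascular selectins. RefSeq promoters on GRCm38.p6 were given for 7 of the 10 genes, not for Icam2, Vcam1 and Podxl. Each line is the 250 bases before the RefSeq start of the gene, on its coding strand, and capitals mark motif matches on either strand.
Icam1, chr9:21015690-21015939, plus strand: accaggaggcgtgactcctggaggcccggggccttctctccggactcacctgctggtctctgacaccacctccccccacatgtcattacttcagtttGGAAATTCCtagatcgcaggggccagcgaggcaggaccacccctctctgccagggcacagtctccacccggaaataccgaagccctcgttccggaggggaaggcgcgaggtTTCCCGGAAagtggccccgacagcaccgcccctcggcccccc
Sele, chr1:164047984-164048233, plus strand: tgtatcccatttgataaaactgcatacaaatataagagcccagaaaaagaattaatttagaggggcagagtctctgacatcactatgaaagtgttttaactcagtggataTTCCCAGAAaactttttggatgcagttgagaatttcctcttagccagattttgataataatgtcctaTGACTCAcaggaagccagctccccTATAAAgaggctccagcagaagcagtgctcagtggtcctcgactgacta
Selp, chr1:164115014-164115263, plus strand: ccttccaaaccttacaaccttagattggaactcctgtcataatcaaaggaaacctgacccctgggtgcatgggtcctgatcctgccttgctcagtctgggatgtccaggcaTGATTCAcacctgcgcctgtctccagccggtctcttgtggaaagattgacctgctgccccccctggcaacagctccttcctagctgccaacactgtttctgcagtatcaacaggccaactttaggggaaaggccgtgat

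The motifs searched were the NF-κB consensus (by its degenerate pattern), the core of the interferon-stimulated response element (TTTC and TTTC with 2 bases between them), the interferon-γ activated site (GAS) TTCNNNGAA, the AP-1 site TGANTCA and the TATA box TATAAA. The sequence GGAAATTCC was added after the Icam1 promoter had been seen. In Icam1 it lay from base -153 to -145 and a GAS match from -42 to -34. The GENCODE start of Icam1 lies 45 bases downstream of the RefSeq start, so bases next to the GENCODE start are outside this window. In Sele a GAS match lay from -140 to -132, an AP-1 match from -73 to -67 and a TATA box from -49 to -44, and in Selp an AP-1 match lay from -139 to -133. Madcam1 had 2 matches to the NF-κB consensus, from -83 to -74 and from -70 to -61, and Glycam1 a GAS match from -145 to -137. Alcam and Cd99l2 had no match to any of these motifs. The GENCODE start of Alcam lies at base -993 from its RefSeq start, so the Alcam window is inside the GENCODE gene. Among 32851 promoter windows of this length, GGAAATTCC was found in 0.286%, a GAS match in 7.02%, an AP-1 match in 6.75%, the NF-κB consensus in 7.25%, the TATA box in 12.4% and the interferon element in 2.98%. The motifs do not overlap one another in these windows, and a match is not evidence of binding.

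Icam1 encodes ICAM-1, which holds leukocytes through the integrins LFA-1 and Mac-1. It maps to chr9:21015985-21028817 (plus strand) (GENCODE M21, mm10). Its normalized reads were 517, 632, 617 and 560.4 in anti-CD40 replicates 1 to 4 and 257, 269, 483 and 499.7 in isotype control replicates 1 to 4. All 4 anti-CD40 libraries were above all isotype control libraries, but isotype control replicates 3 and 4 came close to anti-CD40 replicate 1. Such a separation was seen upward for 1.09% and downward for 0.486% of all genes tested. The means were 582 ± 52.8 and 377 ± 132 (SD, n = 4 each), a ratio of 1.54. The log2 difference, on the log2(normalized reads + 1) scale, was 0.69 with a standard error of 0.22 and a 95% interval from 0.19 to 1.19 (limma p = 0.0111, rank 107 of the genes tested, exact permutation p = 0.0286). No smaller permutation p is possible with 4 against 4 libraries. Without isotype control replicate 1 the ratio was 1.39, without isotype control replicate 2 it was 1.41, and without anti-CD40 replicate 2 it was 1.498, so that the gene no longer reached the limit of 1.5, while limma p stayed between 0.0035 and 0.0335 over the 8 fits that each left out a library. Icam1 shares 2.27% of its 50-base windows with transcripts of other genes and overlaps exons of Gm47079 on the opposite strand.

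Vcam1 encodes VCAM-1, the ligand of the integrin VLA-4 of lymphocytes and monocytes, and maps to chr3:116109949-116129688 (minus strand). Its normalized reads were 758, 703, 671 and 676 in anti-CD40 replicates 1 to 4 and 181, 583, 531 and 431 in isotype control replicates 1 to 4. The anti-CD40 libraries lay close together, with an SD of 5.68% of their mean, and isotype control replicate 1 lay far below the other 3 of its group. The means were 702 ± 39.8 and 431 ± 179 (SD, n = 4 each), a ratio of 1.63, and the groups did not overlap. The log2 difference was 0.83 with a standard error of 0.31 and a 95% interval from 0.16 to 1.504 (limma p = 0.0204, rank 138, exact permutation p = 0.0286). Without isotype control replicate 1, the ratio fell to 1.36 and the log2 difference to 0.46, below the limit of 1.5, although limma p was then 0.00494. In that library 74 reads of Vcam1 were counted, and the values of fibroblast and mural markers, cell types that can also make VCAM-1, were lowest there. Over all libraries, the summed mural markers ranged from 15017 to 25796 with anti-CD40 and from 11329 to 36095 with isotype control, 0 of 7 mural and 0 of 6 fibroblast markers passed the threshold, and their part in the result was not tested. The summed macrophage markers were between 308 and 503 normalized reads with anti-CD40 and between 203 and 467 with isotype control. Of these 8 markers 1 was higher and 0 were lower, where 1.28% of all genes tested rose and 0.239% fell. The part of macrophage RNA in the rise of Icam1 and Vcam1 was not tested. Vcam1 overlaps exons of Gm43109 on the opposite strand.

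Reads drawn down to the depth of the shallowest library gave log2 differences of 0.71 for Icam1 and 0.84 for Vcam1, both past the threshold. Only the total of reads on genes was matched in this step. The part of depth, and of other differences between the libraries, was not tested.

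Icam2 encodes ICAM-2, the LFA-1 ligand of resting endothelium, and maps to chr11:106377656-106388075 (minus strand). Its normalized reads were 709, 1004, 792 and 855 in the anti-CD40 libraries and 601, 642, 847 and 1024 in the isotype control libraries, in the order of the replicates. The highest value belonged to an isotype control library, and the groups overlapped. The ratio was 1.08, with a log2 difference of 0.13 and a 95% interval from -0.27 to 0.53 (limma p = 0.484, exact permutation p = 0.6). The interval holds no change as well as a 1.44-fold rise.

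The ratio of Icam1 to Icam2 within a library does not depend on the scaling of that library. Reads of Icam1 were 73.0%, 63.0%, 77.8% and 65.6% of those of Icam2 in the anti-CD40 libraries and 42.7%, 41.9%, 57.1% and 48.8% in the isotype control libraries. The groups did not overlap, and the lowest anti-CD40 value was above the highest isotype control value. The ratio was 1.47-fold higher with anti-CD40 (log2 difference 0.56, exact permutation test, p = 0.0286). Without any one of the anti-CD40 libraries the exact permutation p was 0.0571, and without any one of the isotype control libraries 0.0286. The groups stayed separate in each of these cases, and p takes only coarse steps with so few libraries. Adjusted over the 6 pairs of genes compared in this way, p was 0.171, and 6 such tests of 4 against 4 libraries can pass an adjusted limit of 0.05 only if at least 4 of them reach the smallest p. The ratio of Vcam1 to Icam1 ranged from 70.5% to 217% with isotype control and from 109% to 147% with anti-CD40, a log2 difference of 0.14 (exact permutation test, p = 0.743). Relative to Pecam1, Icam1 was 1.36-fold (exact permutation test, p = 0.114) and Vcam1 1.502-fold (exact permutation test, p = 0.171) the isotype control level, and the groups overlapped for both. Pecam1 itself had a log2 difference of 0.24 with a 95% interval from -0.14 to 0.63.

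**Figure D2:**
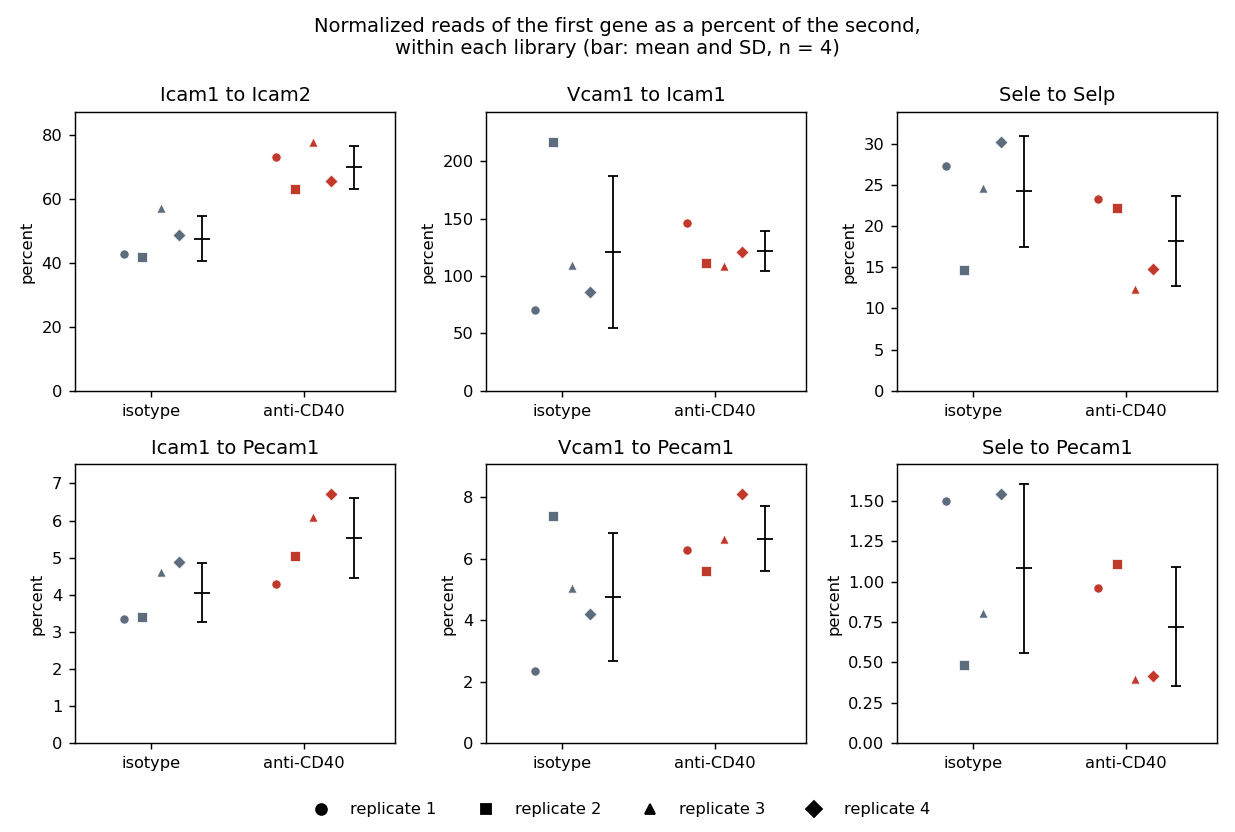
Normalized reads of one gene as a percent of another within each library for the 6 pairs compared (vertical axes, linear from 0), with replicates as symbols and the mean and SD of 4 libraries as bars. The groups are separate for Icam1 to Icam2, with 63.0% to 77.8% with anti-CD40 against 41.9% to 57.1% with isotype control, and overlap for the other pairs.

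Sele encodes E-selectin, which is stored in no granule and appears after transcription is induced. It maps to chr1:164048234-164057677 (plus strand). Its normalized reads were 116, 139, 40.3 and 34.8 in anti-CD40 replicates 1 to 4, from 981, 368, 67 and 60 reads. In isotype control replicates 1 to 4 they were 115, 38.1, 84.4 and 158, from 47, 16, 62 and 727 reads. Low and high values occurred in both groups, and the highest value was that of isotype control replicate 4. The means were 82.4 ± 52.6 and 98.7 ± 50.3 (SD, n = 4 each), a ratio of 0.834. When leaving out a library, the ratio was between 0.644 (without anti-CD40 replicate 2) and 1.04 (without isotype control replicate 4). The log2 difference was -0.34 with a 95% interval from -1.49 to 0.82 (limma p = 0.534, exact permutation p = 0.686), so that neither a fall to 0.355 nor a rise to 1.77 times the isotype control level is outside the interval.

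Selp encodes P-selectin, which endothelium and platelets store and bring to the surface on activation, and maps to chr1:164115264-164150026 (plus strand). Its normalized reads were 496, 624, 327 and 236 in the anti-CD40 libraries and 420.3, 259, 343 and 522 in the isotype control libraries. The groups overlapped throughout, and the library with the lowest and that with the highest value were both anti-CD40. The log2 difference was 0.07 with a 95% interval from -0.59 to 0.74 (limma p = 0.815, exact permutation p = 0.8). The summed platelet markers were between 2918 and 3714 normalized reads with anti-CD40 and between 1857 and 3652 with isotype control, with Pf4 between 9.78 and 137, and 0 of the 7 tested passed the threshold.

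Both selectins varied more between tumors of a group than between the groups. The highest anti-CD40 library held 3.98 times the normalized reads of Sele of the lowest, and the highest isotype control library 4.14 times. For Vcam1 these spreads were 1.13 and 3.22 times, and for Icam1 1.22 and 1.95 times. Sele and Selp ranked the 8 libraries in the same order, except that anti-CD40 replicate 2 and isotype control replicate 4 traded the first and second places. Icam1 and Vcam1 had isotype control replicate 1 as their lowest library, in which Sele and Selp were above the isotype control mean, at 116% and 109% of it. The ratio of Sele to Selp was 12.3% to 23.3% with anti-CD40 and 14.7% to 30.2% with isotype control, a log2 difference of -0.41 (exact permutation test, p = 0.200). Relative to Pecam1, Sele was 0.669 times the isotype control level (exact permutation test, p = 0.314).

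Podxl encodes podocalyxin, a sialomucin of the luminal endothelial surface, and maps to chr6:31519488-31563981. It was 4326, 4643, 3563 and 2769 normalized reads in the anti-CD40 libraries and 3157, 2512, 3639 and 3283 in the isotype control libraries. Anti-CD40 replicates 1 and 2 were above all isotype control libraries and replicate 4 was below 3 of them. The ratio was 1.22, with a log2 difference of 0.27 and a 95% interval from -0.13 to 0.66 (limma p = 0.165, exact permutation p = 0.229), and it did not pass the threshold. With library quality weights the log2 difference was 0.063, and it was 0.16 to 0.41 when leaving out a library.

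Alcam encodes ALCAM, which binds CD6 on T-cells, and maps to chr16:52248996-52454074. It was expressed at a low level, with 66.8, 59.2, 58.4 and 35.4 normalized reads in the anti-CD40 libraries and 70.9, 42.8, 36.8 and 48.5 in the isotype control libraries. The highest value was in isotype control replicate 1, where 29 reads were counted, and the groups overlapped. The log2 difference was 0.15 with a 95% interval from -0.48 to 0.77 (limma p = 0.618, exact permutation p = 0.629), and it was 0.018 to 0.34 when leaving out a library.

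Cd99l2 encodes a relative of CD99 that takes part in the passage of leukocytes between endothelial cells, and maps to chrX:71420060-71492849. It was the steadiest of the 8 genes over all libraries, with 335, 389, 322 and 334 normalized reads in the anti-CD40 libraries and 310.4, 388, 403 and 341 in the isotype control libraries. The highest library held 1.21 times the lowest with anti-CD40 and 1.30 times with isotype control. The log2 difference was -0.06 with a 95% interval from -0.35 to 0.23 (limma p = 0.666, exact permutation p = 0.629), which leaves out both a 1.5-fold rise and a 1.5-fold fall.

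**Figure D3:**
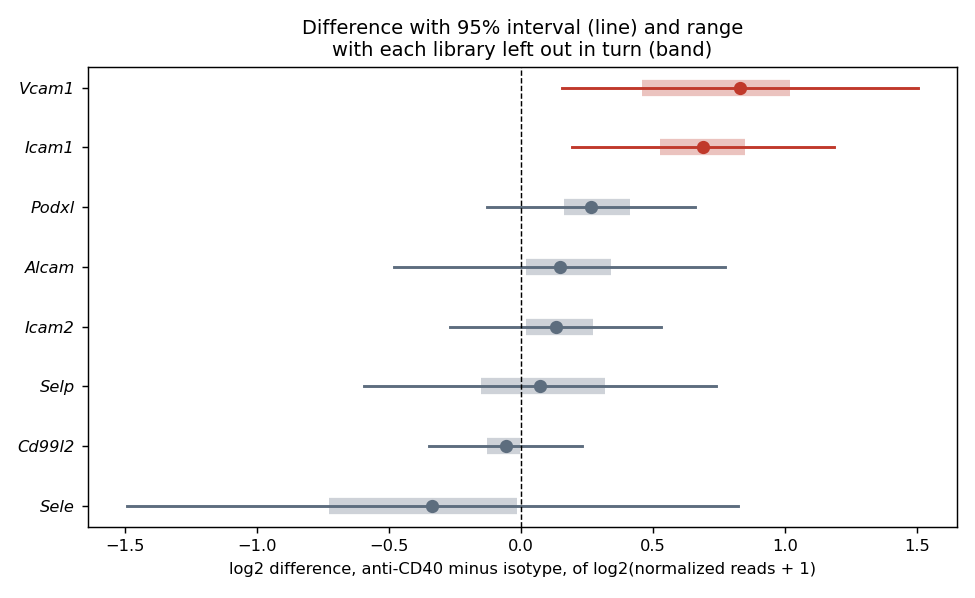
Log2 difference between anti-CD40 and isotype control for the 8 adhesion molecules tested (horizontal axis, log2(normalized reads + 1) scale), with the 95% interval as a line, the range over the 8 fits that each left out a library as a band, and genes past the threshold in red. The intervals of Icam1 (0.19 to 1.19) and Vcam1 (0.16 to 1.504) lie above 0, and those of the other genes include it.

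Madcam1 and Glycam1 mark the vessels of gut-associated lymphoid tissue and the high endothelial venules of lymph nodes, where MAdCAM-1 binds the integrin α4β7 and GlyCAM-1 carries sugar ligands of lymphocytes. Both were below the limit for testing. Madcam1 had 4, 7, 5 and 2 reads in the anti-CD40 libraries, or 0.47, 2.64, 3.01 and 1.16 normalized reads. In the isotype control libraries it had 0, 0, 0 and 11 reads, the last being 2.38 normalized reads. Its 18 and 11 reads correspond to 0.161 RPM, taken over all reads on genes, with anti-CD40 (Poisson 95% interval 0.0953 to 0.254) and 0.230 RPM with isotype control (0.115 to 0.412), while the mean of normalized reads was higher with anti-CD40, at 1.82 against 0.596. At this depth the groups could not be told apart.

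Glycam1 had 35, 3, 0 and 2 reads in the anti-CD40 libraries, or 4.12, 1.13, 0 and 1.16 normalized reads, and 0 reads in each isotype control library. Of its 40 reads, 35 came from anti-CD40 replicate 1, the deepest library. The isotype control libraries held 47792263 reads on genes in all, so that a count of 0 allows up to 3 reads, or 0.0628 RPM, against 0.357 RPM with anti-CD40. Over the groups the observed anti-CD40 rate (Poisson 95% interval 0.255 to 0.487 RPM) was 5.69 times this floor. Without anti-CD40 replicate 1, 5 reads remained among 46975725, or 0.106 RPM and 1.70 times the floor. These are too few for a bound beyond counting error. The floor and the interval cover counting error only. The exact permutation test of normalized reads gave p = 0.143 for Glycam1 and p = 0.171 for Madcam1. Fut7 and Chst4, enzymes that build the sugar ligands of high endothelial venules, were near 0 as well, with 13 reads of Fut7 in isotype control replicate 4 and none elsewhere, and 1 read of Chst4 in all. Of 5 markers of high endothelial venules, only Enpp2 was above the limit for testing, and it did not pass the threshold. The 5 markers summed to between 553 and 679 normalized reads with anti-CD40 and between 364 and 1014 with isotype control.

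Levels of different genes were compared per kilobase of the longest transcript of each gene. Podxl and Icam2 stood first, at 711 ± 156 and 655 ± 97.1 normalized reads per kilobase with anti-CD40 and 585 ± 87.4 and 607 ± 153 with isotype control (SD, n = 4 each). Their ranges over the libraries overlapped, and the lowest Icam2 value of 469 was above the highest Icam1 value of 249. Icam1 followed at 229 ± 20.8 and 149 ± 52.2 normalized reads per kilobase, Vcam1 at 172 ± 9.75 and 106 ± 43.7, Selp at 122 ± 50.4 and 112 ± 32.5, and Cd99l2 at 95.9 ± 8.33 and 100.1 ± 11.8 (SD, n = 4 each). Over all 8 libraries neighbors among these genes overlapped, whereas within the anti-CD40 group all libraries had more Icam1 than Vcam1 per kilobase without overlap. Sele was lower, at 28.3 ± 18.1 and 33.9 ± 17.3 normalized reads per kilobase. Its highest value of 54.1 was below the lowest of Cd99l2, 86.2, but above the lowest of Vcam1, 44.2. Alcam stood at 9.10 ± 2.25 and 8.24 ± 2.47. The constitutive ICAM-2 was thus measured at a higher transcript level than the inducible ICAM-1 in each group.

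The nearest patterns over the 8 libraries were sought among all genes tested other than the 8 adhesion molecules, as the smallest root mean square difference of mean-centered log2 values. For Icam1 these were Adra1d (0.136), Usp18 (0.144) and Acss2 (0.147), where the median over all other genes was 0.538. Usp18 encodes the interferon-induced protease that removes ISG15. For Vcam1 they were C1ra (0.151), Rarres2 (0.155) and Lbp (0.157), against a median of 0.663. C1ra encodes a protease of the complement pathway and Lbp the lipopolysaccharide-binding protein. For Sele they were Dmkn (0.297), Ccdc18 (0.417) and Hr (0.439), against a median of 0.876, and Selp itself, outside this search, was at 0.435, closer than Hr. For Selp they were Hint3 (0.184), Tppp (0.189) and Npr1 (0.229), against a median of 0.534. Icam1 and Vcam1 differed from each other by 0.453. These values describe likeness over 8 libraries that share their depth and scaling, and they say nothing of shared control. Some of the nearest genes had few reads. In isotype control replicates 1 to 3, Adra1d had 2, 2 and 8 reads and Dmkn 5, 2 and 12. Ccdc18 had 12, 7 and 20 reads there, and Hr 8, 2 and 9.

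Other genes of leukocyte capture and passage were taken from lists chosen by function. Among all genes tested, 1.52% passed the threshold in either direction, and the median log2 difference was 0.0046. Of 15 tested genes for other adhesion and capture molecules, 0 passed the threshold in either direction, and 11 had a log2 difference above 0, with a median of 0.05. The lowest p belonged to Cx3cl1, which encodes the membrane-bound chemokine fractalkine. Cx3cl1 was 214, 332, 325 and 320.0 normalized reads in the anti-CD40 libraries and 83.1, 262, 246 and 227 in the isotype control libraries, a ratio of 1.46 (limma p = 0.0788, exact permutation p = 0.114). Without isotype control replicate 1 its ratio was 1.22 and its log2 difference 0.26, against 0.65 with it. Without isotype control replicate 2 the ratio was 1.61 and Cx3cl1 passed the threshold. Mcam, with the largest mean, had a log2 difference of 0.03. Of 11 junctional molecules, 0 passed, with a median of 0.10, a range from -0.03 for Pvrl3 to 0.24 for Pecam1, and 0.11 for Cdh5, the most abundant. Of 13 tested genes of selectin ligand synthesis, 0 passed, with a median of -0.01. Among them St3gal4, a sialyltransferase, had the lowest p with a log2 difference of 0.26 (limma p = 0.109, exact permutation p = 0.143), and B4galt1 the largest mean with -0.04. Of 20 genes for the docking structure that anchors ICAM-1 and VCAM-1 to the cytoskeleton, 0 passed, with a median of 0.01 and a range from -0.18 for Ezr to 0.21 for Slc9a3r2, the gene with the lowest p. Flna, with the largest mean, had a log2 difference of -0.05.

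Of 23 receptors and transcription factors that govern the inducible adhesion genes, 1 rose and 0 fell. A log2 difference above 0 was seen for 20, with a median of 0.19. Among all genes tested, 1.28% rose and 0.239% fell, and the median was 0.0046. The gene that rose was Irf1, a transcription factor of the interferon response. Irf1 was 784, 941, 1082 and 1330.4 normalized reads in the anti-CD40 libraries and 305, 454, 709 and 613 in the isotype control libraries. All anti-CD40 libraries lay above all isotype control libraries, at means of 1034 ± 232 and 521 ± 178 (SD, n = 4 each) and a ratio of 1.99. The log2 difference was 1.03 with a standard error of 0.25 (limma p = 0.00188, exact permutation p = 0.0286), and the adjusted p over all genes tested was 0.460 in limma. Irf1 passed in each of the 8 fits that left out a library, whereas Icam1 passed in 5 and Vcam1 in 7 of them. Jun, with the largest mean, had a log2 difference of 0.33 (limma p = 0.204, exact permutation p = 0.371). Gata6, an endothelial transcription factor, had a log2 difference of 1.01 and did not pass. For the NF-κB subunits Rela, Nfkb1, Relb and Nfkb2 the log2 differences were 0.05, 0.12, 0.32 and 0.23. For the NF-κB targets Nfkbia and Tnfaip3 they were 0.29 and 0.28, and none of these genes passed the threshold.

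**Figure D4:**
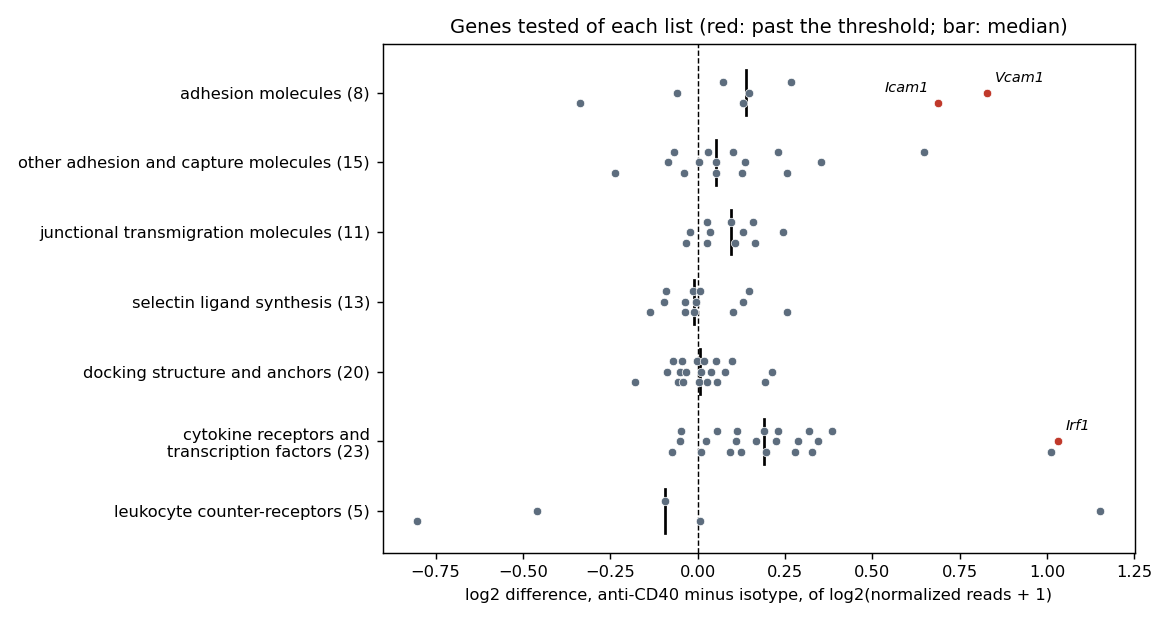
Log2 differences between anti-CD40 and isotype control (horizontal axis, log2(normalized reads + 1) scale) of the genes tested in each list, 1 point per gene, with the number tested in parentheses, the median as a bar and genes past the threshold in red. Icam1, Vcam1 and Irf1 stand at 0.69, 0.83 and 1.03, and the other genes were not called.

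The sort excluded CD45+ cells, and most leukocyte receptors that bind these molecules were at low levels. Of 10 genes, 5 were above the limit for testing and 0 passed, and 2 of the 5 had a log2 difference above 0, with a median of -0.09. Itgal, a subunit of LFA-1, stood at -0.80 and Itga4, a subunit of VLA-4, at -0.46. Itgam, a subunit of Mac-1, had the lowest p, with 16.7 ± 5.58 normalized reads with anti-CD40 and 8.23 ± 5.84 with isotype control (SD, n = 4 each, limma p = 0.0612, exact permutation p = 0.143). Its log2 difference was 1.15, and 0.77 without isotype control replicate 1. It passed the threshold without isotype control replicate 2 (1.48) or 4 (1.41), with library quality weights (1.44) and in limma without trend (1.15). Itgb1, which endothelium also makes, had the largest mean and a log2 difference of -0.09. Itgb2, the shared subunit of LFA-1 and Mac-1, was between 25.9 and 68.3 normalized reads. The 8 leukocyte markers summed to between 1482 and 1637 normalized reads with anti-CD40 and between 1195 and 1700.0 with isotype control. Of these markers 6 were tested and 0 passed.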

How the data were processed

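The deposited table holds a signal per gene, reads that the authors divided by DESeq2 size factors after alignment to mm10 with TopHat2 2.0.11 and counting in Partek Genomics Suite 6.6. Of the deposited values, 99.9439% lay within 0.1 read of a whole read, so whole reads were recovered for depth and for the count tests. The lower bound of 1 and the harvest day correction of the study's methods are not visible in these values. Differences were tested with limma 3.58.1 (trend, treatment only) on log2(normalized reads + 1) for genes with a larger group mean above 10, with Benjamini-Hochberg adjustment over all genes tested, after checks on simulated data. Single values were tested by exact two-sided permutation over 70 assignments of libraries. Each mouse gave 1 library, and replicates were numbered in accession order. The members and lists were chosen with earlier results of these data known. Besides the members, the text names, for each list, the called genes, the gene with the lowest p and the gene with the largest mean, the markers given as ranges and the 3 nearest patterns. The results of 2 genes of these lists are not reported here and are left out of the lists' counts. The genes at the ends of list ranges, Rela, Nfkb1, Nfkbia, Tnfaip3, Gata6, Itgal, Itga4, Usp18, C1ra and Lbp were described after their values were seen. The same holds for Relb, Nfkb2 and Enpp2. Alternatives used edgeR 4.0.16, DESeq2 1.42.0, voom, other filters, scalings and pseudocounts, reads drawn down to the shallowest library, and leaving out each library.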

Additional observations from a re-analysis of the deposited data

Results flagged for a closer look

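In each of 31 groups of 4 libraries, the gap between the highest or lowest library and its nearest neighbor was divided by the range of the group and compared with Dixon's 95% critical value. The isotype control group of Madcam1 alone exceeded it. Isotype control replicate 4 had 2.38 normalized reads of Madcam1 where the other 3 isotype control libraries had 0, and with 3 libraries at 0 any value above 0 in the fourth exceeds the limit. A single read was worth 2.44 and 2.38 normalized reads in isotype control replicates 1 and 2. Chance flags about 1 in 20 groups.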

How the results depend on the processing

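Over 16 other settings and 8 fits that each left out a library, 180 of 192 values of the adhesion molecules kept their direction and their side of the threshold, 5 no longer passed and 7 turned in direction. All 7 belong to genes that did not pass. Settings that changed only the filter, limma's variance model or the definition of the fold left the log2 differences unchanged, so no direction could turn there. The threshold uses the ratio of unweighted group means, and with library quality weights the fitted log2 differences of Icam1 and Vcam1 were 0.37 and 0.53, below a 1.5-fold difference. The causes of the changes below were not tested. The number of adhesion molecules that rose was 3 with all genes that had any read, the third being Glycam1, whose isotype control reads are all 0. It was 1 with voom, where Icam1 had a ratio of 1.43, and 0 to 2 when leaving out a library, with 0 without isotype control replicate 1 and 1 without isotype control replicate 2 or anti-CD40 replicate 2. Leaving out a library gave log2 differences of 0.53 to 0.85 for Icam1 and 0.46 to 1.02 for Vcam1, and without isotype control replicate 1 they were 0.018 for Icam2, 0.15 for Jun and 0.14 for St3gal4. With library quality weights the log2 differences were -0.71 for Sele, -0.040 for Icam2, -0.072 for Selp, -0.086 for Cdh5, 0.024 for Pecam1, -0.11 for Mcam and -0.019 for Slc9a3r2. It was -0.017 for Selp with voom, and -0.066 for Alcam with reads drawn down to the shallowest library. With quantile normalization it was 0.00083 for Flna and 0.018 for Itgb1. Leaving out a library gave -0.73 to -0.014 for Sele, -0.15 to 0.32 for Selp, -0.24 to 0.18 for B4galt1, -0.19 to 0.0078 for Itgb1 and -0.11 to 0.089 for Mcam. For ratios within a library these log2 ranges were 0.50 to 0.65 for Icam1 to Icam2, -0.071 to 0.47 for Vcam1 to Icam1, -0.63 to -0.24 for Sele to Selp, -0.91 to -0.35 for Sele to Pecam1 and 0.29 to 0.84 for Vcam1 to Pecam1. Of all genes tested, 166 rose and 31 fell. With all genes that had any read the counts were 331 and 93. The number that fell was 13 with means above 50, 63 with quantile normalization, 57 without trend, 70 with quality weights, 47 with edgeR, 58 with DESeq2 and 91 with voom, and 27 to 123 when leaving out a library, the highest without isotype control replicate 1. No paired analysis was possible because the labels give no replicate numbers and the mouse names share a single number across the groups (5N and 5L). Depth limits Madcam1, Glycam1, Sele and Alcam, which had fewer than 30 reads in at least 1 isotype control library.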
